A study of Urocitellus parryii with 24 samples.

Results

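Liver gene expression in torpor was compared with that in summer active Arctic ground squirrels (AGS, *Urocitellus parryii*), over 16 of the 24 arrays of the series. The members were all arrays whose labels put them in torpor (T, n = 9, of which 4 early and 5 late in a torpor bout) or in the summer active group (P, n = 7), with 1 nylon cDNA membrane of 9600 probes per animal. Wild-caught animals were kept in captivity. The T animals lived under short winter days without food for the whole of hibernation, carried an abdominal temperature transmitter, and were decapitated while torpid without anesthesia. The P animals, called post-reproduction in the study, were euthermic, had finished breeding, were in molt, and were decapitated under deep isoflurane. Season, feeding, body temperature, anesthesia, and the implant thus changed together between T and P, and their parts in any difference cannot be told apart. The animal identifiers also nearly followed the state. Their prefix 04, whose meaning is not given, was carried by 7 of 9 T and 1 of 7 P animals. The labels name no transgene or deletion, and sex and age are not given in the sources used here. The other 8 arrays, from arousal episodes, were not compared here but entered the fits. There they helped to estimate the spread and, in the fit with a block described below, also moved the changes themselves.

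Torpor is the state in which a hibernator lowers its metabolism and lets its body temperature fall for days at a time, between short rewarming episodes. A fasting animal lives mainly on stored fat. Its liver takes up fatty acids, oxidizes them in mitochondria and peroxisomes, exports ketone bodies, and makes glucose from glycerol, lactate, and amino acids. A fed liver does the reverse: it turns sugar into fatty acids and triglycerides and burns glucose through glycolysis and the pentose phosphate pathway. The liver also makes most plasma proteins and clears foreign compounds.

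Each level below is the log2 of a probe's background-subtracted signal divided by the median of its array, so that all changes are relative to that median. Of 9599 probes tested, 946 (9.86%) differed between T and P at an adjusted p under 0.05. Expression was higher in T for 528 of them (5.5%) and lower for 418 (4.35%). The median change was -0.016 over all probes, and 287 of the called probes changed by more than 1 on the log2 scale. The array median of the signal was 72.8 to 114 intensity units in T and 54.1 to 91.9 in P. The log2 levels of array pairs correlated at 0.907 to 0.965 over the probes of an array, whose values are not independent.

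The membranes came from 2 filter sets, named A1 and A2 in the scanner files. All 9 T arrays and 2 P arrays (replicates 1 and 3) were on A1, and 5 P arrays were on A2. Of the 8 arousal arrays, 7 were on A1 and 1 was on A2. When the fit held the filter set as a block, 93 probes (0.969%) were called, 38 higher (0.396%) and 55 lower (0.573%) in T, so that the share of higher calls went from 55.8% to 40.9%. The same direction was called in both fits for 68 probes (0.708%), of which 26 were higher and 42 lower in T. A further probe, gene2802, was called in both fits with opposite signs (3.92 without the block and -2.78 with it). The 2 P arrays on A1 lay beyond all T arrays on the side of the P mean for 196 of the 946 (20.7%), against 5.51% of all probes, and for 55 of the 68. The 946 were called on a P mean made mostly of A2 arrays. The 68 were also called with the block, a fit that leans on the same 2 P arrays on A1. Their count of 55 thus follows in large part from how they were picked, and the shares are only a description. On the A1 arrays alone, with 9 T and 2 P arrays, 86 probes were called (0.896%), and 37 of the named ones (2.78%). The arousal arrays helped to set the filter set difference in the fit with the block, and so its changes between T and P. Without the arousal arrays, 39 probes were called with the block. Results are given without and with the block because filter set and state nearly coincide. Gene by gene, values on A1 alone are given where they add a call to the fit with the block or turn a sign. Of the 20 genes of largest rise or fall described below, 11 were called on A1 alone. LDHA, ID2, SLC25A4, FETUB, C1orf93, GPAM, TFB2M, THRSP, and PPP1R3C were not (adjusted p from 0.069 for FETUB to 0.31 for LDHA). Calls in both fits were also lost on A1 alone for other genes, such as ASS1 (adjusted p = 0.40), GSTM1 (0.14), CYP3A4 (0.17), and NNT (0.080).

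**Figure D1:**
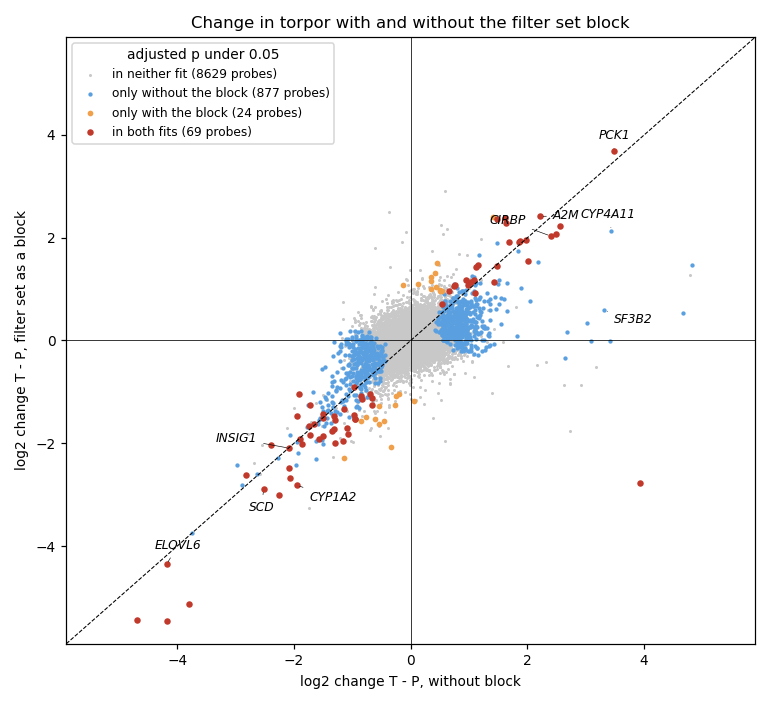
Log2 change between T and P for each probe, without the filter set block (horizontal axis) and with it (vertical axis). The dashed line marks equal changes, and colors mark the fits in which the adjusted p was under 0.05. The probes called in both fits have the same sign in each except for gene2802 at the lower right, while SF3B2 falls from 3.32 to 0.59.

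Gene symbols are known here for 1329 probes, which the study had picked as differing among its states on these same arrays. Of these, 628 (47.3%) were called between T and P, 340 higher (25.6%) and 288 lower (21.7%) in T, and 46 (3.46%) were called with the block. Counts of calls within a gene group are therefore not independent evidence of its direction, and they are to be read against 47.3% and 3.46%. The same direction was called in both fits for 41 named genes (3.09%, 17 higher and 24 lower in T). The 10 largest rises and the 10 largest falls among them are described in turn below, with the group each belongs to. T and P arrays did not overlap for 78 of all probes (0.813%), for 53 of the 1329 (3.99%), and for 20 of the 41.

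**Figure D2:**
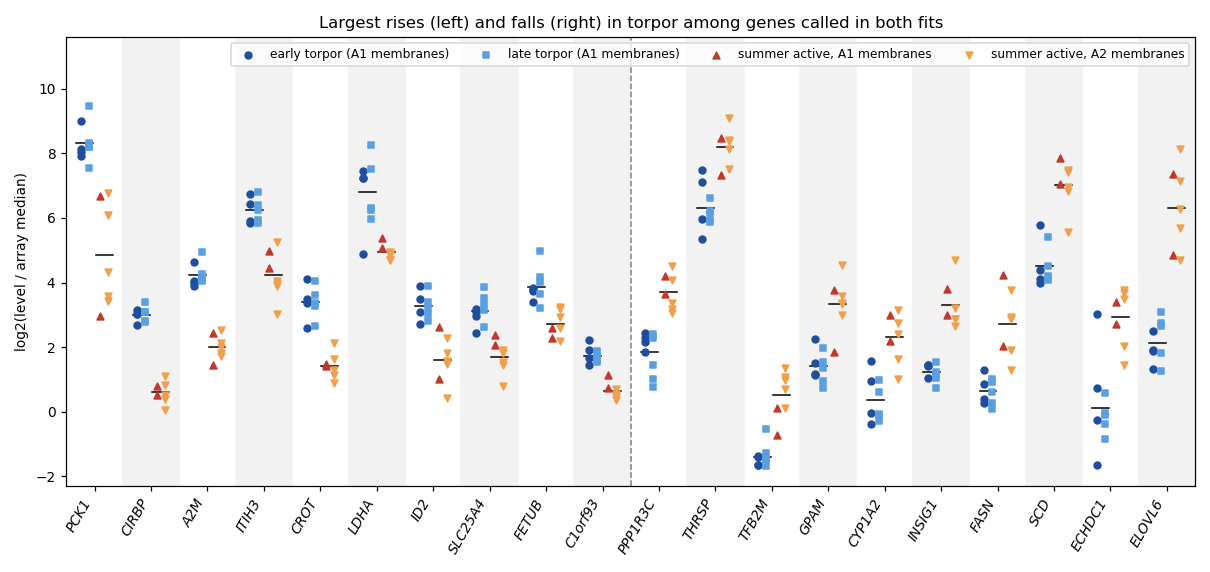
Log2 level relative to the array median on each T and P array for the 20 genes, ordered from the largest rise in T (left) to the largest fall (right). Points are single animals, colors and shapes give the stage and filter set, and black bars are the means of T and P. CIRBP and INSIG1 have clear gaps between T and P on both filter sets, while TFB2M on the P arrays on A1 lies below all of those on A2.

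Of the 10 largest falls of named genes called in both fits, 5 were in genes that make fatty acids and triglycerides, including the largest. ELOVL6, which elongates palmitate to stearate, had levels of 1.25 to 3.08 over the T arrays (median 1.90) and of 4.69 to 8.14 over the P arrays (median 6.28). Every T array lay below every P array. The change was -4.18 ± 0.44 (SE), an 18.2-fold lower level in T (adjusted p = 1.75e-06), and -4.36 ± 0.60 with the block (adjusted p = 3.31e-04). SCD, which puts the double bond into stearate to give oleate, ran from 3.98 to 5.77 in T (median 4.20) and from 5.56 to 7.85 in P (median 7.05). The ranges touched only through the highest T and the lowest P array, and the P arrays on A1, at 7.85 and 7.05, lay above all T arrays. SCD fell by 2.52 ± 0.31 on the log2 scale (adjusted p = 1.63e-05) and by 2.90 with the block (adjusted p = 3.81e-04). In bulk liver RNA, fewer cells of a type and less RNA per cell cannot be told apart, for these genes and for those that follow.

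The central enzyme of the pathway, fatty acid synthase, fell as well. FASN levels were 0.085 to 1.28 in T (median 0.62) and 1.29 to 4.23 in P (median 2.87). The groups did not overlap, but the highest T and the lowest P array were nearly level. Its change was -2.09 ± 0.31 (adjusted p = 1.08e-04), and -2.48 with the block (adjusted p = 0.0023). GPAM, the mitochondrial acyltransferase that starts triglyceride synthesis, had levels of 0.73 to 2.26 in T (median 1.36) and of 1.85 to 4.56 in P (median 3.37). P replicate 3 (on A1) was the lowest P array and lay among the T arrays. The fall was -1.95 ± 0.28 (adjusted p = 9.51e-05) and -1.48 with the block (adjusted p = 0.046). THRSP, a small nuclear protein that accompanies lipogenesis, reached 5.34 to 7.49 in T (median 6.15) and 7.32 to 9.09 in P (median 8.39). The 2 groups overlapped only slightly. THRSP fell by 1.89 ± 0.30 on the log2 scale (adjusted p = 3.18e-04) and by 1.91 with the block (adjusted p = 0.020).

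Of the 11 fatty acid and triglyceride synthesis genes with a probe, 8 were called lower and 2 higher in T, and 5 were called lower with the block. The median change of the group was -1.89, and -1.48 with the block, against -0.049 and 0.0023 over all named genes. ACLY, which supplies cytosolic acetyl-CoA, changed by -2.89 (adjusted p = 0.0020) and by a like amount with the block, where it was not called (-2.82, adjusted p = 0.074). ELOVL5 and AGPAT3 were called lower without the block only. The genes called higher were AGPAT6 (1.11) and LPIN2 (1.22), which act in the later steps of glycerolipid synthesis, and neither was called with the block (0.27 and 0.37).

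Sterol synthesis genes were mostly lower in T. INSIG1, a membrane protein of the endoplasmic reticulum that holds back sterol synthesis and is itself a target of the sterol response, was the member called in every alternative run. Its levels were 0.73 to 1.55 in T (median 1.22) and 2.65 to 4.71 in P (median 2.99). More than 1 log2 unit separated the highest T from the lowest P array. INSIG1 changed by -2.08 ± 0.22 (adjusted p = 1.84e-06) and by -2.10 ± 0.31 with the block (adjusted p = 4.95e-04).

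Over the 11 sterol genes with a probe, 8 were called lower and 2 higher, with a median of -0.95, and 2 were called lower with the block (median -0.77). SC4MOL, the methyl oxidase that works downstream of lanosterol, had levels of 0.49 to 1.77 in T (median 1.09) and of 1.20 to 3.53 in P (median 2.45). It was called lower without the block (-1.44 ± 0.29, adjusted p = 0.0028) but not with it (-1.36, adjusted p = 0.095), and it was called on the A1 arrays alone (-1.73, adjusted p = 0.024). FDPS (-0.95) and EBP (-0.78) were also called lower only without the block. INSIG2, the paralog of INSIG1, was called higher (1.85, adjusted p = 0.0041), with 1.74 and an adjusted p of 0.13 in the fit with the block. GGPS1, which makes geranylgeranyl diphosphate, was the other gene called higher (1.15, adjusted p = 0.0022), and its change was 0.46 with the block.

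Among genes of glucose production, the largest rise was in PCK1, the cytosolic enzyme that commits oxaloacetate to glucose synthesis. PCK1 had levels of 7.55 to 9.47 in T (median 8.19) and of 2.97 to 6.78 in P (median 4.32). The T arrays were close together and all above the P arrays, which were widely spread, also on A1 (2.97 and 6.68). The rise was 3.48 ± 0.52 (adjusted p = 1.44e-04), an 11.2-fold higher level in T, and 3.68 ± 0.72 with the block (adjusted p = 0.0078). G6PC, which releases free glucose in the last step, had levels of 3.75 to 5.17 in T (median 4.22) and of 2.93 to 3.64 in P (median 3.34). No T array overlapped with a P array. G6PC rose by 1.12 ± 0.23 (adjusted p = 0.0037), and its change with the block was also 1.12 but had an adjusted p of 0.089. GPT, the alanine aminotransferase, was called lower without the block (-1.17, adjusted p = 0.0036) and changed by -0.82 with it. Of the 7 gluconeogenesis genes with a probe, 2 were called higher and 2 lower (median 0.54), and PCK1 alone was called with the block.

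LDHA, a subunit of lactate dehydrogenase, was the member of the glycolysis and pentose phosphate group called higher. Its levels were 4.87 to 8.26 in T (median 7.23) and 4.69 to 5.37 in P (median 4.91). The T arrays were spread far more widely than the P arrays, and 1 early torpor array (replicate 4) lay within the P range. LDHA rose by 1.86 ± 0.33 (adjusted p = 0.0011) and by 1.91 with the block (adjusted p = 0.039). The opposite direction was called for all 3 members of the pentose phosphate pathway that were called, an arm that yields the NADPH used to build fatty acids. PGD, its second dehydrogenase, had levels of -1.92 to -0.79 in T (median -1.14) and of -0.46 to 1.32 in P (median 0.43). Its groups did not overlap, and it fell by 1.72 ± 0.19 on the log2 scale (adjusted p = 3.32e-06) and by 1.26 with the block (adjusted p = 0.0054). TKT, transketolase, fell by 1.16 (adjusted p = 0.020) and by 1.96 with the block (adjusted p = 0.0067). TALDO1, transaldolase, changed by -1.35 (adjusted p = 0.0024) and by -1.21 with the block (adjusted p = 0.11), and it was called on the A1 arrays alone (-1.42, adjusted p = 0.026). Over all 12 genes of the group with a probe, 1 was called higher and 4 lower (median -0.61), and LDHA, PGD, and TKT were the 3 called with the block.

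Glycogen metabolism was represented among the largest falls by PPP1R3C, a subunit that brings protein phosphatase 1 to glycogen and favors its synthesis. PPP1R3C levels were 0.77 to 2.45 in T (median 2.17) and 3.07 to 4.50 in P (median 3.65). All T arrays were lower than all P arrays. Its fall was -1.87 ± 0.34 (adjusted p = 0.0012), and -2.02 with the block (adjusted p = 0.030).

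Genes of fatty acid breakdown had smaller median changes than those of synthesis, and most of their calls were lost with the block. CROT, which moves chain-shortened fatty acids out of peroxisomes as carnitine esters, was called in both fits. CROT had levels of 2.60 to 4.10 in T (median 3.38) and of 0.88 to 2.12 in P (median 1.40). No array of either group reached the range of the other. The rise was 1.97 ± 0.26 (adjusted p = 3.34e-05) and 1.95 with the block (adjusted p = 0.0060). PEX19, a receptor that brings membrane proteins to peroxisomes, had levels of 1.41 to 2.02 in T (median 1.78) and of 0.22 to 1.25 in P (median 0.91). These groups did not overlap either, and PEX19 rose by 0.98 ± 0.18 (adjusted p = 0.0016) and by 1.08 with the block (adjusted p = 0.031). Over the 20 peroxisomal and fatty acid uptake genes with a probe, 9 were called higher and 3 lower (median 0.25), and CROT and PEX19 were the 2 called with the block. The fatty acid binding protein FABP1 had 1.48 without the block (adjusted p = 0.015) and 1.90 with it (adjusted p = 0.063). SLC27A2 and SLC27A5, fatty acid and bile acid acyl-CoA synthetases, were called in opposite directions without the block (1.04 and -0.76).

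In mitochondrial beta-oxidation, 6 of 11 genes with a probe were called higher and 3 lower, with a median of 0.82, and 0 were called with the block, where the median was 0.24. ACAA2, the thiolase of the last step, had levels of 4.47 to 5.60 in T (median 5.05) and of 2.70 to 4.97 in P (median 3.20). The P arrays on A1, at 4.97 and 4.38, lay near or among the T arrays. ACAA2 was called without the block (1.45 ± 0.25, adjusted p = 9.78e-04) and had 0.84 ± 0.30 with it (adjusted p = 0.25). ETFDH, which passes electrons from this pathway to ubiquinone, went from 0.96 (adjusted p = 9.98e-04) to 0.41 (adjusted p = 0.36). HADH, the third enzyme of the cycle, ran from 4.32 to 4.78 in T and from 2.79 to 4.27 in P, with no overlap. Its change was 0.84 (adjusted p = 0.0055), and 0.39 with the block (adjusted p = 0.57). PNPLA2, the lipase that opens triglyceride stores, belongs to the 41 genes called in both fits (0.77, adjusted p = 0.012, and 1.08, adjusted p = 0.027). Like the other genes from outside the naming rule, it was chosen after its values were seen.

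All 4 ketone body genes with a probe were called without the block, 3 higher and 1 lower, 0 with it, and 1 on the A1 arrays alone. OXCT1, which serves ketone use outside the liver, was called higher (1.33 ± 0.33, adjusted p = 0.013). Its levels were -1.48 to -0.53 in T and -3.05 to -0.32 in P, its signal was over 2 times the background on 2 of the 7 P arrays, and the P arrays on A1 lay within the T range (-1.02) and above it (-0.32). The sign turned with the block (-0.10).

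The smallest adjusted p of all genes named here belonged to CIRBP, an RNA-binding protein made in many cell types in mild cold. CIRBP had levels of 2.69 to 3.41 in T (median 3.03) and of 0.039 to 1.12 in P (median 0.52). The T arrays were all more than 1 log2 unit above the P arrays, and P arrays of both filter sets lay together. CIRBP rose by 2.40 ± 0.19 (adjusted p = 5.64e-09), a 5.29-fold higher level in T, and by 2.03 ± 0.24 with the block (adjusted p = 3.71e-05). Of the 29 RNA binding and splicing genes with a probe, 12 were called higher and 4 lower (median 0.20), and CIRBP alone was called with the block. SF3B2, a subunit of a spliceosomal complex, had a larger change than CIRBP without the block (3.32, adjusted p = 0.0039) but 0.59 with it (adjusted p = 0.64). HNRPDL, a splicing repressor, rose by 1.37 (adjusted p = 0.0022), and SYNCRIP, an mRNA-binding protein of the same wider family, fell by 1.27 (adjusted p = 0.00175). Their changes with the block were 0.59 and -0.62, and neither was called.

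Plasma proteins made by the liver changed in both directions, and the 4 called with the block were all higher in T. A2M, the plasma protease trap alpha-2-macroglobulin, had levels of 3.90 to 4.95 in T (median 4.10) and of 1.45 to 2.52 in P (median 2.02). All T arrays lay well above all P arrays on both filter sets. A2M rose by 2.22 ± 0.30 (adjusted p = 4.48e-05) and by 2.42 ± 0.41 with the block (adjusted p = 0.0032). ITIH3, a heavy chain that is joined to hyaluronan in the matrix, ran from 5.84 to 6.82 in T (median 6.25) and from 3.03 to 5.26 in P (median 4.06). Again no array overlapped, and the P arrays on A1 stood at 4.96 and 4.43. The rise of ITIH3 was 2.02 ± 0.27 (adjusted p = 4.06e-05), and 1.56 with the block (adjusted p = 0.029). FETUB, a protease inhibitor of the cystatin family, ran from 3.20 to 4.96 in T (median 3.76) and from 2.17 to 3.25 in P (median 2.58). The lowest T array was just under the highest P array, and both P arrays on A1 were below all T arrays. FETUB rose by 1.15 ± 0.24 (adjusted p = 0.0036) and by 1.47 with the block (adjusted p = 0.017).

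The fourth was PRG4, a lubricating proteoglycan, with 0.96 in the fit with the block (adjusted p = 0.035) and 0.53 without it (adjusted p = 0.067). In all, 8 of the 31 plasma protein genes with a probe were called higher and 2 lower without the block, with a median of -0.036. The 2 lower were FGB, a fibrinogen chain (-1.28, adjusted p = 0.013), and MBL2, a lectin of the complement system (-0.97, adjusted p = 0.043). Albumin (0.56, adjusted p = 0.071), transthyretin (-0.57, adjusted p = 0.13), and SERPINA1 (-0.23, adjusted p = 0.59) were not called.

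**Figure D3:**
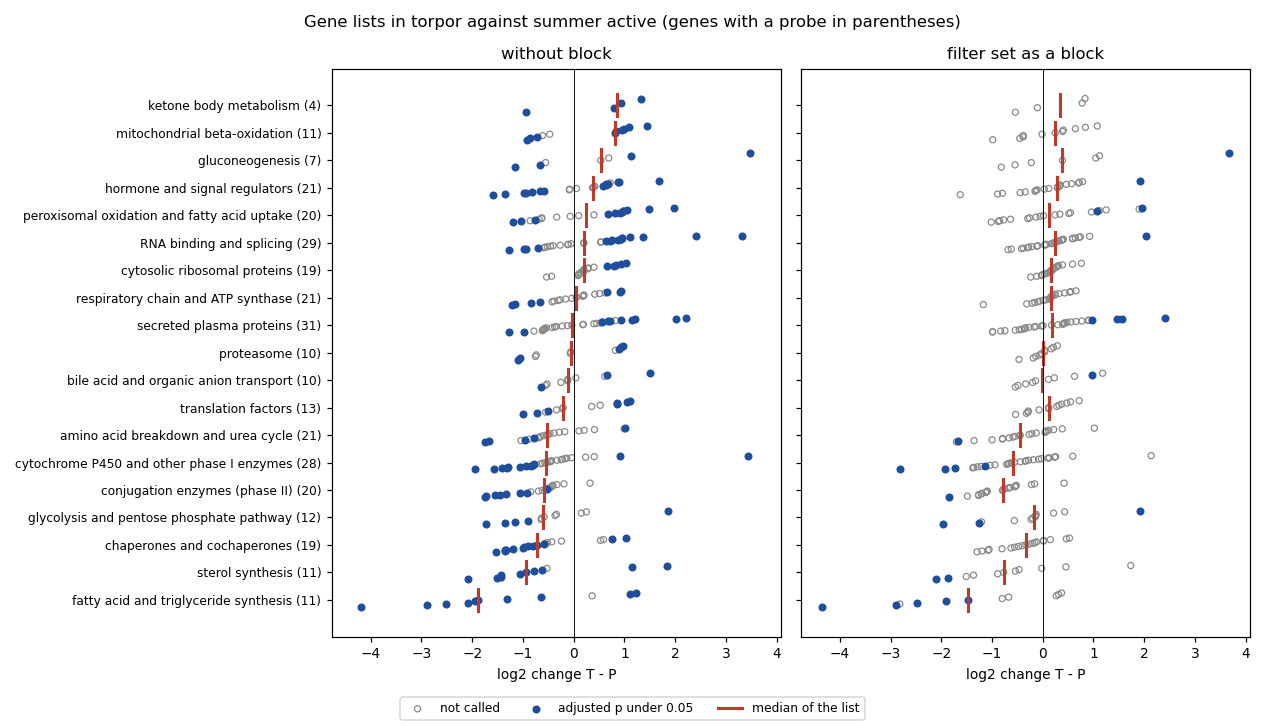
Log2 change between T and P for each gene of 19 groups, without the filter set block (left) and with it (right). Each point is a gene, filled where its adjusted p was under 0.05, and red bars are group medians. The fatty acid and triglyceride synthesis group has the lowest median in both panels (-1.89 and -1.48), and the filled points of the chaperone, ribosomal, and respiratory groups are absent on the right.

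Of 48 enzymes that clear foreign compounds with a probe, 18 were called lower in T, 2 higher, and 28 were not called. CYP1A2, a cytochrome P450 that oxidizes caffeine and aromatic amines, had levels of -0.40 to 1.57 in T (median -0.028) and of 1.01 to 3.16 in P (median 2.40). The ranges overlapped at the top of T and the bottom of P, where the low P arrays were on A2. It fell by 1.95 ± 0.42 on the log2 scale (adjusted p = 0.0053) and by 2.82 with the block (adjusted p = 0.0067). AOX1, aldehyde oxidase, had levels of -1.24 to 0.13 in T (median -0.78) and of 0.49 to 1.84 in P (median 0.77). With no overlap between the groups, AOX1 fell by 1.58 ± 0.28 (adjusted p = 0.0010) and by 1.92 with the block (adjusted p = 0.0070). CYP3A4, a P450 of broad substrate range, changed by -1.32 (adjusted p = 0.0053) and -1.72 (block, adjusted p = 0.022), and AKR7A3, an aldehyde reductase, by -0.83 (adjusted p = 0.0039) and -1.15 (block, adjusted p = 0.0069). These are the 4 of 28 phase I genes called with the block, all lower. Without it, 10 were called lower and 2 higher, and the group's median was -0.54, against -0.59 with the block.

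CYP4A11, a P450 that hydroxylates fatty acids at their far end and not mainly an enzyme of foreign compounds, went the other way. Its levels were 3.90 to 7.47 in T (median 6.75) and 1.53 to 5.06 in P (median 2.38). The P arrays on A1 were the higher ones, at 5.06 and 4.43, and overlapped with the lowest T array. CYP4A11 rose by 3.44 ± 0.49 without the block (adjusted p = 7.37e-05) and had 2.14 ± 0.56 with it (adjusted p = 0.059).

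Of the 20 conjugation enzymes with a probe, 8 were called lower and 0 higher, with a median of -0.58, and -0.79 with the block. GSTM1, a glutathione transferase, was the member called in both fits. GSTM1 levels were 1.02 to 3.80 in T (median 3.16) and 4.45 to 4.87 in P (median 4.71). The P arrays were close together and all above the T arrays. Its fall was -1.73 ± 0.30 (adjusted p = 9.98e-04), and -1.84 with the block (adjusted p = 0.029). UGT2B17, a glucuronosyltransferase for steroids, had no overlap either (3.43 to 5.02 in T and 5.17 to 6.77 in P). It changed by -1.76 (adjusted p = 9.51e-05), and by -1.26 with the block (adjusted p = 0.053). GSTM and UGT2B genes have close paralogs, and a cDNA probe may bind more than 1 of them.

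In amino acid breakdown and the urea cycle, ASS1, which joins citrulline to aspartate, was called in both fits. ASS1 levels were 0.84 to 3.24 in T (median 2.05) and 3.29 to 4.49 in P (median 3.97). The groups did not overlap, although the P arrays on A1, at 3.39 and 3.29, were just above the highest T array. ASS1 fell by 1.74 ± 0.30 on the log2 scale (adjusted p = 8.75e-04) and by 1.67 with the block (adjusted p = 0.046). ARG1, which ends the cycle by releasing urea, changed by -0.77 (adjusted p = 0.0077), and by -0.59 with the block (adjusted p = 0.35). PRODH, which starts proline breakdown, changed by -1.67 (adjusted p = 0.0014) and -0.998 (block, adjusted p = 0.29), with a signal over 2 times the background on 4 of 9 T arrays. Both P arrays on A1, at -1.75 and -1.97, lay within the T range of PRODH (-2.57 to -1.38). Over all 21 genes of the group with a probe, 4 were called lower and 1 higher (median -0.53), and ASS1 alone was called with the block.

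Among regulators, ID2, which binds and silences helix-loop-helix transcription factors, was the member called in both fits. Its levels were 2.72 to 3.90 in T (median 3.21) and 0.41 to 2.62 in P (median 1.57). The lowest T array was just above the highest P array, which was on A1 (2.62, against 1.02 for the other). ID2 rose by 1.68 ± 0.28 (adjusted p = 7.56e-04) and by 1.91 with the block (adjusted p = 0.011). FOXO3, a transcription factor held back by insulin signaling, changed by -1.35 (adjusted p = 9.08e-04), and TSC22D3, a target of glucocorticoids, by -1.60 (adjusted p = 0.0041). With the block their changes were -0.89 (adjusted p = 0.19) and -1.63 (adjusted p = 0.088). Of the 21 regulators with a probe, 7 were called higher and 7 lower (median 0.37).

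Mitochondrial genes were found on both sides of the list. SLC25A4, which exchanges ADP for ATP across the inner membrane, had levels of 2.43 to 3.85 in T (median 3.16) and of 0.79 to 2.38 in P (median 1.82). Both P arrays on A1 (2.38 and 2.05) were higher than all P arrays on A2, and the groups did not overlap. The rise was 1.43 ± 0.20 (adjusted p = 8.81e-05), and 1.15 with the block (adjusted p = 0.036). TFB2M, a factor that opens mitochondrial promoters for transcription, had levels of -1.70 to -0.54 in T (median -1.46) and of -0.72 to 1.35 in P (median 0.70). P replicate 3, on A1, overlapped with the highest T array. TFB2M changed by -1.91 ± 0.26 (adjusted p = 4.25e-05), and by -1.03 with the block (adjusted p = 0.046).

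Respiratory chain and ATP synthase genes, 21 with a probe, had 3 called higher, 4 lower, and 0 with the block, and a median of 0.051. UQCRC2, a core protein of complex III, changed by -1.16 in the fit without the block (adjusted p = 0.0022) and by -1.17 in the fit with it (adjusted p = 0.062). NNT, which makes NADPH at the inner membrane, was among the 41 genes called in both fits (0.95, adjusted p = 0.0067, and 1.18, adjusted p = 0.043).

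The largest falls and rises also held genes outside these groups. ECHDC1, which removes faulty by-products of fatty acid synthesis, had levels of -1.64 to 3.02 in T (median -0.093) and of 1.45 to 3.76 in P (median 3.40). Its signal was over 2 times the background on 5 of 9 T arrays and on all P arrays. Early torpor replicate 4, at 3.02, lay within the P range. The fall was -2.82 ± 0.47 (adjusted p = 6.31e-04), and -2.62 with the block (adjusted p = 0.044). C1orf93 had levels of 1.44 to 2.21 in T (median 1.66) and of 0.35 to 1.14 in P (median 0.54), without overlap. C1orf93 rose by 1.09 ± 0.15 (adjusted p = 3.74e-05) and by 0.92 with the block (adjusted p = 0.015). SLCO1A2, a transporter of bile acids and organic anions, was the 1 of 10 transport genes called with the block, and 2 were called higher and 1 lower without it. SLCO1A2 changed by 0.65 (adjusted p = 0.017), and by 0.97 with the block (adjusted p = 0.027), at a signal over 2 times the background on 5 of 9 T arrays and 1 of 7 P arrays.

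Protein folding was represented by chaperones and their partners. Of 19 chaperones and cochaperones with a probe, 11 were called lower and 2 higher (median -0.72), 0 with the block (median -0.33), and 3 were called lower on the A1 arrays alone. HSPH1, which recharges HSP70, had levels of 0.73 to 1.60 in T (median 1.04) and of 1.54 to 3.10 in P (median 2.60). It changed by -1.35 (adjusted p = 7.56e-04), by -1.08 with the block (adjusted p = 0.089), and by -1.50 on the A1 arrays alone (adjusted p = 0.0043). HSP90AA1, the inducible HSP90, ran from 0.71 to 1.79 in T and from 2.09 to 3.06 in P without overlap. Its change went from -1.35 (adjusted p = 0.0013) to -0.80 with the block (adjusted p = 0.29). HSPA8, the constitutive HSP70, changed by -1.20 in each fit, with adjusted p of 0.0026 and 0.074, and by -1.56 on the A1 arrays alone (adjusted p = 0.024). DNAJB4, a cochaperone of HSP70, was the third called there (-1.51, adjusted p = 0.012).

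The ribosomal, translation, and proteasome groups had 0 genes called with the block or on the A1 arrays alone. Cytosolic ribosomal protein genes had 5 of 19 called higher and 0 lower, with a median of 0.20, and 0.17 with the block. RPL3 was the 1 with no overlap, from 1.64 to 2.74 in T and from 0.71 to 1.60 in P (1.04, adjusted p = 0.0039, and 0.76 with the block, adjusted p = 0.29). Of 13 translation factors, 4 were called higher and 3 lower (median -0.21). EIF4A2, an RNA helicase of initiation, was the lowest (-1.01, adjusted p = 0.0038, and -0.53 with the block). Of 10 proteasome genes, 3 were called higher and 2 lower (median -0.062), and PSMD9, an assembly factor of the proteasome, went from 0.93 (adjusted p = 0.013) to -0.017 with the block.

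Markers of hepatocytes were bright in both states, and all 9 exceeded 2 times the background on arrays of each. Albumin levels were 8.07 to 9.80 in T and 8.03 to 8.49 in P, and the sum of the 9 hepatocyte markers, in multiples of the array median, was 505 to 1322 in T and 640.0 to 961 in P. Without albumin it was 208 to 465.7 in T and 304 to 602 in P. Sums of the other marker lists overlapped too. They were 15.8 to 42.6 in T and 11.2 to 66.2 in P for 9 macrophage and leukocyte markers, 8.13 to 17.8 and 12.8 to 23.8 for 6 fibroblast and stellate markers, 6.56 to 12.5 and 5.17 to 9.44 for 4 endothelial markers, and 5.11 to 5.89 and 4.75 to 5.84 for 9 striated muscle markers. The erythroid marker HBA2 stood at 0.97 to 7.81 in T and 1.55 to 2.42 in P.

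Markers were also tested singly. IGJ and IGLL3, which mark antibody-making cells, were lower in T without the block (-1.78, adjusted p = 0.0013, and -1.93, adjusted p = 0.0039). With the block IGJ had -1.69 (adjusted p = 0.062) and IGLL3 -2.18 (adjusted p = 0.052), and on the A1 arrays alone both were called (-1.97, adjusted p = 0.012, and -2.35, adjusted p = 0.014). FCGR3A, an antibody receptor of macrophages and natural killer cells, was higher (1.36, adjusted p = 0.0075, and 0.80 with the block, adjusted p = 0.49). Without the block, LAPTM5 was also called higher (0.92, adjusted p = 0.025) and SLAMF9 lower (-0.83, adjusted p = 0.025). CD27 had 0.61 and was not called (adjusted p = 0.063). The 9 leukocyte markers had a median change of 0.42, with 5 changes positive and 4 negative. In all, 5 of 9 leukocyte, 1 of 6 fibroblast, 2 of 4 endothelial, 6 of 9 muscle, and 4 of 9 hepatocyte markers were called without the block and 0 of each with it. On the A1 arrays alone, IGJ and IGLL3 were the 2 markers called. The part of cell makeup in the changes of other genes was not tested.

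Early and late torpor were also set against P separately, in a fit of 5 groups. Early torpor (n = 4) gave 296 calls (3.08% of probes), of which 263 were among the 946, and late torpor (n = 5) gave 432 (4.50%), of which 400 were. Of the 20 genes described above, 18 were called in early and 20 in late torpor, FETUB and CYP1A2 being those not called in early torpor. The 20 had been picked for their changes on these same arrays, so their calls by stage are not independent evidence. Late and early torpor themselves differed at 0 of 9595 probes by limma at an adjusted p under 0.05. An unadjusted p under 0.05 was found for 458 probes, a threshold that marks about 1 in 20 by chance alone. None of these probes belonged to the 20 genes. ELOVL6, for example, had a mean of 1.90 ± 0.48 (SD, n = 4) in early and 2.31 ± 0.76 (SD, n = 5) in late torpor. PCK1 had 8.28 ± 0.50 and 8.35 ± 0.70, and CIRBP had 2.97 ± 0.20 and 3.03 ± 0.26.

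The number of calls depended on single P arrays. Without P replicate 1 or P replicate 3, the 2 on A1, it rose to 1490 and 1375, and without any of the P arrays on A2 it fell to between 550 and 605. Leaving out a T array gave 720 to 877 calls. Early torpor replicate 4 was the T array nearest to P for several of the 20 genes, among them LDHA, ECHDC1, SCD, GPAM, THRSP, and CYP1A2. For others, such as PCK1 and ELOVL6, it was not. This array had the highest background of the T arrays (19.9) and the fewest probes over 2 times the background (8319). The part of this in its levels was not tested. Without the block, all 20 genes were called with any array left out, but they had been picked for large changes on these same arrays. With the block, the count was 93, and it was 11 without P replicate 1 and 58 without P replicate 3, which left 6 and 13 of the 20 genes called. CIRBP, A2M, ELOVL6, SCD, and INSIG1 were called in all 33 alternatives, which included these and the A1 arrays alone. Their highest adjusted p was 0.0043, 0.034, 0.020, 0.020, and 0.031, respectively, while that of the other 15 genes lay between 0.067 (CROT) and 0.41 (GPAM).

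**Figure D4:**
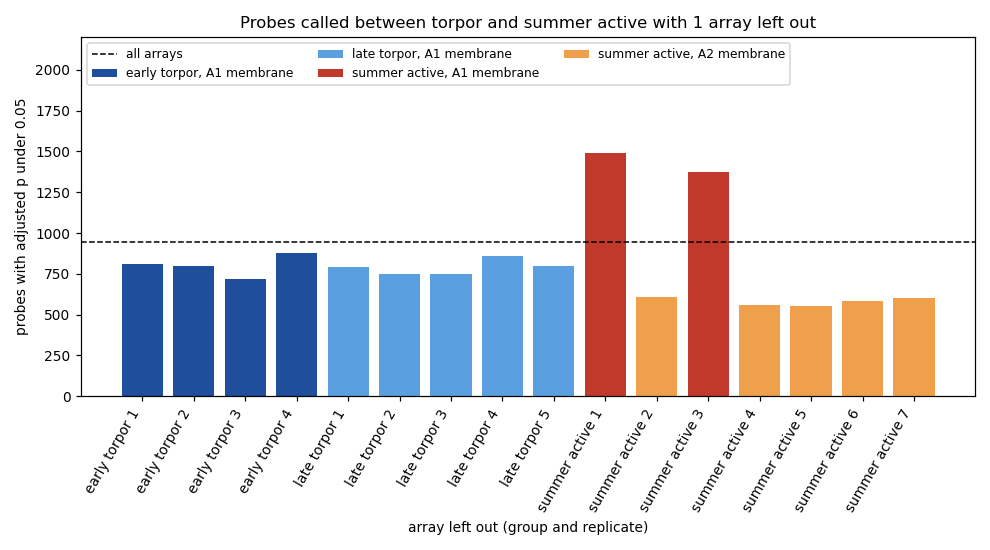
Number of probes with an adjusted p under 0.05 between T and P when the named array is left out. Bars are colored by stage and filter set, and the dashed line is the number with all arrays (946). Bars for the 2 P arrays on A1 stand above the line, and those for the P arrays on A2 are the lowest.

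A further 27 of the 68 probes called in both fits have no gene symbol in the tables used here. The largest falls among them were at gene4850, with levels of -0.26 to 4.11 in T and 4.74 to 7.74 in P (change -4.68 ± 0.62, and -5.44 with the block), and at gene5697 (-4.18, and -5.46 with the block). The groups did not overlap at gene4850, while the lowest P array at gene5697 lay within the T range. The largest rises were at gene0643 (2.56, and 2.24 with the block) and gene2824 (2.48, and 2.07 with the block).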

How the data were processed

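Total liver RNA of each animal was amplified, labelled with 33P, and hybridized to a nylon cDNA membrane. The study states that its RNA samples went through processing in a single batch, without naming the filter sets. The authors deposited spot and background intensity values (ImaGene 6.1.0, per the file headers) and a table of the ratio of background-subtracted median signal to the array median. Recomputing that ratio from the deposited intensity gave values that differed from the deposited ratio by at most 4.98e-07 outside spots that stand at its floor of 0.002. Its log2 was used, with 487 of 153600 T and P spots at or below 0 taken as missing. Probes over 2 times the background numbered 8157 to 9063 per array. The number of arrays limits the precision.

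Changes were tested with limma 3.58.1 (R 4.3.3) over all 24 arrays in 3 states, with the contrast of T and P and Benjamini-Hochberg adjustment over all probes. Filter sets come from the scanner file names, and the second fit held the filter set as a block. On simulated arrays, 157 of 200 probes changed by 1 log2 unit were recovered with 9 false calls, and 86 with 3 false calls with the block (9407 probes). No filter set difference was put into the simulated arrays, so these counts do not give the false calls that such a difference could cause. Tables were made with pandas 2.3.3 and numpy 2.4.6 in Python 3.11.15, and plots with matplotlib 3.10.9.

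Human gene symbols were paired with 1329 probes through the state means of the study's supplementary table (tolerance 1e-04), and 992 are current symbols of the AGS RefSeq annotation (mUroPar1.hap1). Members, gene lists, and the naming rule were chosen with earlier results of these data known. Named genes are the 10 largest rises and falls called in both fits, the 3 members of each list with the smallest p, and all markers. Some genes are not reported here, and no probe sequence or position was used. The alternatives were quantile normalization, normexp (offset 50), the deposited ratio, a floor for spots at or below 0, empty spots as missing, no dim probes (over background on at least 7 arrays), A1 arrays only, T and P arrays only, 5 groups, the identifier prefix as a block, the methods' test, and leaving out each array. Leaving out a P array on A1 from the block fit was added after seeing the data.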

Additional observations from a re-analysis of the deposited data

Results flagged for a closer look

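Within T, 3 genes had an array that stood apart from the other 8, among 130 gene and group combinations examined. Chance alone marks about 1 in 20 such groups. TFB2M was highest in late torpor replicate 3, at -0.54 against -1.28 for the next T array. RPL10A was highest in the same animal, at 4.75 against 3.80 for the next. UQCRC2 was highest in early torpor replicate 4, at 2.00 against 1.29 for the next.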

How the results depend on the processing

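The 946 calls (528 higher in T) became 543 (307 higher) with normexp, 93 (38) with the filter set as a block, 86 (30) on A1 filters only, 39 (15) on T and P arrays with the block, 296 (136) for early torpor alone, 432 (255) for late torpor alone, and 524 (334) with the identifier prefix, which 7 of 9 T and 1 of 7 P animals share as 04, as a block. Other alternatives gave 917 to 1333 calls. Leaving out 1 array gave 550 to 1490 calls, with 311 to 830 higher in T. The calls moved by more than 1.5 times without P replicate 1 (1490), 2 (605), 4 (559), 5 (550), 6 (585), and 7 (600). With the block, there were 11 calls (5 higher) without P replicate 1 and 58 (18 higher) without P replicate 3. Of the 20 genes, 11 were called on A1 filters only, 8 on T and P arrays with the block, and 6 and 13 with the block without P replicate 1 and 3. The cause of these differences was not tested, although A1 filters hold only 2 P arrays.

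Some signs turned. On A1 filters only, OXCT1 had -0.25, RPL9 -0.048, PSMD9 -0.040, DCN -0.24, CAV1 -0.042, and ACTA1 -0.0066. The fit on T and P arrays with the block gave the same changes by design, since all T arrays are on A1, and is no second check. With the block, OXCT1 had -0.10 and PSMD9 -0.017. With the block and without P replicate 1, OXCT1 had -0.23, RPL10A -0.18, PSMD9 -0.082, and SLAMF9 0.20. With the block and without P replicate 3, SLAMF9 had 0.046 and NRP1 -0.048. No paired analysis was possible because each animal gave 1 array and the labels carry animal identifiers, not numbers shared between T and P.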
